A study of Mus musculus with 7 samples.

Results

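The lymphocyte genes of the liver are 45 genes, of the 56691 genes in the count table, that T cells, cytotoxic and natural killer (NK) cells, B cells and plasma cells are known for, with 3 genes shared by all leukocytes. They were chosen by gene symbol as T cell (19 genes), cytotoxic and NK cell (12 genes), B cell (5 genes), immunoglobulin and plasma cell (6 genes) and pan-leukocyte (3 genes), and all 45 symbols were found. RNA of whole liver was sequenced from 4 control mice and 3 mice given lipopolysaccharide (LPS), the outer membrane component of Gram-negative bacteria that starts septic inflammation. All were male C57BL/6J mice bought at 8 weeks of age and kept for 2 weeks, from a study with 6 mice a group. The LPS treated mice received 10 mg/kg into the peritoneum and were killed after 24 h, and what the control mice received is not given in the labels. Total counts were 14991022, 15096573, 15721944 and 18584140 in control replicates 1 to 4 and 20500391, 17095607 and 17821331 in LPS replicates 1 to 3.

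The liver holds resident lymphocytes in and beside its sinusoids, and NK cells and other innate-like lymphocytes are unusually common there. Cytotoxic cells kill by releasing perforin, which opens the target membrane, and granzymes, proteases that enter through it. T cells recognise antigen through a receptor that signals through the CD3 chains, while B cells signal through CD79 beside a membrane immunoglobulin.

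The lymphocyte genes are a trace of the RNA of whole liver. Together they held 827, 809, 525 and 856 counts in control replicates 1 to 4 and 2334, 966 and 1108 counts in LPS replicates 1 to 3, which is 0.00334% to 0.0114% of a library. Levels are given as raw counts and as counts per 1000000 (CPM) of the library size scaled by TMM factors, and 3 counts, the limit below which a gene is not told from 0, were worth 0.138 to 0.212 CPM. As a check of the tissue, Alb, the albumin of hepatocytes, had between 382765 and 1043478 counts in each mouse. In mixed tissue, fewer cells of a type and less RNA per cell cannot be told apart.

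Libraries of 1 group did not stand at equal distances from each other. The nearest pair was LPS replicates 2 and 3, with an SD of the log2 ratio of 0.10 over 1729 genes with more than 2000 counts in the pair, against 0.29 to 0.58 in the other 8 pairs of mice of 1 group. Results are given for the 7 mice. The member calls and the T cell, cytotoxic and B cell sums are therefore also given with these 2 mice summed into 1 sample. The other gene lists are not given in that form. The share of counts on mitochondrial genes was 23.7%, 14.6%, 7.48% and 8.96% in control replicates 1 to 4 and 6.45%, 3.83% and 3.94% in LPS replicates 1 to 3, so it was lower in each LPS mouse than in each control mouse. With mitochondrial genes left out of the table, the same 9 members were called as named below, whereas the part of RNA quality was not tested.

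LPS treated mice had more RNA of the killing genes Gzma, Gzmb and Prf1 and less RNA of Cd4 and of the B cell genes Cd79b and Ighd, while the chains of the T cell receptor had few counts in both groups. A gene was called where edgeR's quasi-likelihood test gave an adjusted p below 0.05 and the log2 fold change lay beyond 1. Of the 45 lymphocyte genes, 19 passed edgeR's count filter and were tested, and the other 26 did not pass it. Called higher were 6 (Gzma, Gzmb, Prf1, Ptprc, Coro1a and Rac2) against a background of 7.81% of all 13683 tested genes, and called lower were 3 (Cd4, Cd79b and Ighd) against 7.31%. The groups did not overlap for 11 tested members, against 18.1% of all tested genes that were higher without overlap and 17.4% that were lower without overlap. The median log2 fold change was -0.75 over the 19 tested members and -0.01 over all tested genes. Of the 19, 7 reached the count minimum in 1 group only (Cd4, Icos, Prf1, Cd79a, Cd79b, Ms4a1 and Ighd), and a gene that is tested through the group where it is high had to differ, so these counts support nothing by themselves. With LPS replicates 2 and 3 summed, the same 9 members were called.

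**Figure D1:**
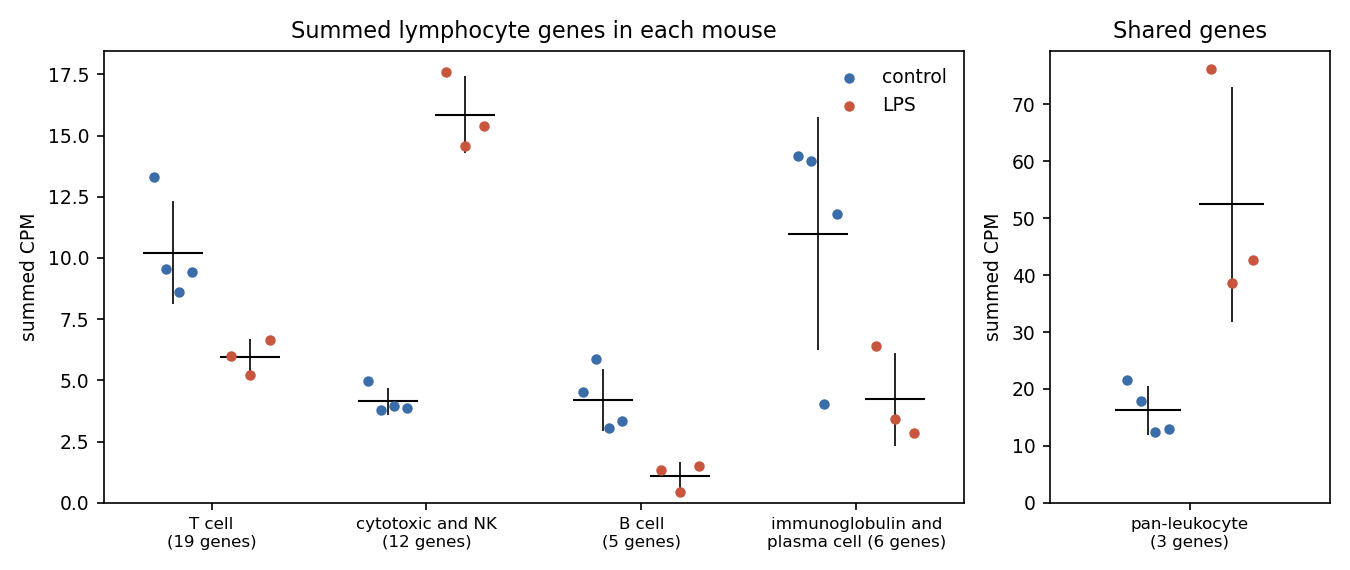
Summed CPM of the lymphocyte genes of each cell type in each mouse (points), with the mean (horizontal line) and SD (vertical line) of 4 control and 3 LPS treated mice; the pan-leukocyte genes have an axis of their own. The cytotoxic and NK cell sum was 3.79 to 4.95 CPM in control mice and 14.6 to 17.6 CPM in LPS treated mice, whereas the T cell and B cell sums were lower in each LPS treated mouse than in each control mouse.

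The cytotoxic list summed higher after LPS, with Gzma, Gzmb and Prf1 called. The 12 genes of this list summed to 70, 60, 65 and 80 counts in control replicates 1 to 4 and to 382, 226 and 247 counts in LPS replicates 1 to 3, or 4.15 ± 0.544 CPM (SD, n = 4) and 15.8 ± 1.58 CPM (SD, n = 3), a log2 ratio of 1.93. Each LPS treated mouse lay above each control mouse, and the ratio was 1.98 with LPS replicates 2 and 3 summed. Gzma encodes granzyme A, a trypsin-like protease of cytotoxic granules. It had 19, 12, 6 and 5 counts in control replicates 1 to 4 and 121, 92 and 108 counts in LPS replicates 1 to 3, or 0.678 ± 0.496 CPM (SD, n = 4) against 6.08 ± 0.588 CPM (SD, n = 3). The 3 LPS treated mice were close together and all far above control replicate 1, the highest of the controls, and the log2 fold change was 3.20 with a standard error of 0.48 (edgeR's quasi-likelihood test, adjusted p = 0.000331). Gzmb encodes granzyme B, the protease that cuts caspases in the target cell. It had 4, 5, 13 and 6 counts in control replicates 1 to 4 and 152, 43 and 61 counts in LPS replicates 1 to 3, or 0.421 ± 0.249 CPM (SD, n = 4) against 4.52 ± 2.21 CPM (SD, n = 3). LPS replicate 1 was the highest and control replicate 3 stood above the other controls without reaching any LPS treated mouse, and the log2 fold change was 3.41 with a standard error of 0.51 (edgeR's quasi-likelihood test, adjusted p = 0.000325).

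Prf1, the gene of perforin, was near 0 in the control mice. It had 1, 0, 0 and 8 counts in control replicates 1 to 4 and 21, 25 and 26 counts in LPS replicates 1 to 3, or 0.114 ± 0.185 CPM (SD, n = 4) against 1.40 ± 0.373 CPM (SD, n = 3). The LPS treated mice were alike and all above control replicate 4, which held nearly all the control counts. The log2 fold change was 3.39 with a standard error of 0.90 (edgeR's quasi-likelihood test, adjusted p = 0.0146). Without LPS replicate 2 or LPS replicate 3 it was 3.30 and 3.29 and no longer called (adjusted p = 0.0577 and 0.0583 in edgeR), and without control replicate 4 it was 5.57 (adjusted p = 0.00197); adjusted p ran from 0.00143 to 0.0583 over 14 alternatives. The 3 killing genes together had 24, 17, 19 and 19 counts in the controls and 294, 160 and 195 counts in the LPS treated mice.

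No receptor or transcription factor of NK cells among the members was called in edgeR, and of these only Klrk1 was tested. Klrb1c, the NK1.1 receptor that marks NK cells in C57BL mice, had 1, 5, 0 and 9 counts in control replicates 1 to 4 and 28, 8 and 14 counts in LPS replicates 1 to 3. It did not pass the count filter, although the CPM of each LPS treated mouse was above that of each control mouse, and its rate in LPS treated mice was 4.19 times that in control mice (exact 95% interval 2.32 to 8.04, for counting error only). Klrk1, the activating receptor NKG2D, had 24, 17, 28 and 34 counts in control replicates 1 to 4 and 30, 19 and 14 counts in LPS replicates 1 to 3. These overlapped, with a log2 fold change of -0.40 and a standard error of 0.45 (edgeR's quasi-likelihood test, adjusted p = 0.574). Ncr1, the NKp46 receptor found on nearly all NK cells, had 1, 0, 4 and 0 counts in control replicates 1 to 4 and 2, 5 and 0 counts in LPS replicates 1 to 3, too few to compare. Ifng, the interferon gamma that activated NK and T cells release, had 5, 0, 0 and 1 counts in control replicates 1 to 4 and 0, 0 and 2 counts in LPS replicates 1 to 3, so no difference could be detected at this depth.

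The rest of the cytotoxic list gave no separation of the groups. Klrd1, the CD94 chain that pairs with NKG2 receptors, had 1, 8, 4 and 2 counts in the controls and 10, 16 and 2 counts in the LPS treated mice, a rate ratio of 2.35 (exact 95% interval 1.21 to 4.73) with overlapping mice. Nkg7, a granule membrane protein, and Klre1, another lectin-like receptor, had 2 to 17 and 0 to 11 counts a mouse and overlapped. Eomes and Tbx21 encode the T-box factors that NK cells depend on. Eomes was at 0 in the controls with 6, 0 and 2 counts in the LPS treated mice, and Tbx21 had 1, 1, 5 and 11 counts in the controls with 0, 3 and 1 in the LPS treated mice. Without Gzma, Gzmb and Prf1, a sum looked at after the values were seen, the remaining 9 genes gave 2.93 ± 0.236 CPM (SD, n = 4) against 3.85 ± 0.538 CPM (SD, n = 3), a log2 ratio of 0.39, with control replicate 1 at 3.26 CPM and LPS replicate 3 at 3.24 CPM. The difference of the whole list thus rested mostly on the killing genes.

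Other NK receptors and killing genes were read from a list of 35 genes, of which 7 were tested, 4 were called higher and none lower in edgeR, against 7.81% and 7.31% of all tested genes, with a median log2 fold change of 2.32. Of the 4, Itga2, Cd244a and Il18rap reached the count minimum in LPS treated mice only, and such genes had to be higher, so neither this count nor the median supports a direction of the list. Of the 33 genes with a count, the exact 95% interval of the rate ratio lay above 1 for 15, below 1 for 0 and held 1 for 18. These intervals cover counting error alone. Itga2, the integrin chain CD49b that is used to sort NK cells and is also found on platelets, had 3, 1, 2 and 3 counts in control replicates 1 to 4 and 284, 253 and 250 counts in LPS replicates 1 to 3. Its rate was 110.0 times higher in LPS treated mice (exact 95% interval 57.6 to 241), with no overlap (edgeR's quasi-likelihood test, adjusted p = 2.77e-08). S1pr5, a receptor that lets NK cells leave lymph nodes, rose with a log2 fold change of 2.32 and a standard error of 0.38 (edgeR, adjusted p = 0.000699). Cd244a, the receptor 2B4, had 0, 6, 1 and 7 counts in the controls and 141, 27 and 45 in the LPS treated mice (log2 fold change 4.14, standard error 0.74, edgeR adjusted p = 0.00127; 3.45 without LPS replicate 1). Il18rap, a chain of the interleukin-18 receptor, rose by 2.71 on the log2 scale with a standard error of 0.73 (edgeR, adjusted p = 0.0161), and by 2.29 without LPS replicate 1, when it was not called (adjusted p = 0.088). These genes are not limited to NK cells. Of the list, 9 genes never had more than 3 counts in any mouse.

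The promoters of the 3 killing genes, which rose together, are given as the 250 bases before the start of each gene from RefSeq (GRCm38.p6), read along the gene's own strand. Of the 45 members, 28 had a promoter in that table, as 36 promoters. Searched on both strands were GGTGTGA (the T-box core), TGANTCA (AP-1), TTCNNNGAA (STAT), TGTGGT (the RUNX core), ATGCAAAT (the octamer) and CCCNNGGG (EBF), which 3.33%, 6.75%, 7.02%, 14%, 1.6% and 11.8% of all 32851 promoters held. TGTGGT, in capitals in either orientation, was present in each of the 3 and in 11 of the 36 member promoters. Gzmb also held 1 TGANTCA and Prf1 1 CCCNNGGG, and neither overlapped a TGTGGT. A match describes the letters and not binding. The 250 bases before Gzma lie at chr13:113100982-113101231 on the minus strand, those before Gzmb at chr14:56262335-56262584 on the minus strand and those before Prf1 at chr10:61297586-61297835 on the plus strand.
Gzma: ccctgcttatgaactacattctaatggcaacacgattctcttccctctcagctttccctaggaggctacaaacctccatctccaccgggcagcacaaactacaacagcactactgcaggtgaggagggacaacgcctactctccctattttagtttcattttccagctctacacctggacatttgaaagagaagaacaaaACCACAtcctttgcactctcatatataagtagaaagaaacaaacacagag
Gzmb: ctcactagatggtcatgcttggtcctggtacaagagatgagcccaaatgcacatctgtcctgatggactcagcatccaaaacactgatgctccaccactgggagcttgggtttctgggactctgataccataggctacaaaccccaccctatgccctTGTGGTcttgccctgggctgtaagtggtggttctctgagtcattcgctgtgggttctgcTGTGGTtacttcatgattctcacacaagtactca
Prf1: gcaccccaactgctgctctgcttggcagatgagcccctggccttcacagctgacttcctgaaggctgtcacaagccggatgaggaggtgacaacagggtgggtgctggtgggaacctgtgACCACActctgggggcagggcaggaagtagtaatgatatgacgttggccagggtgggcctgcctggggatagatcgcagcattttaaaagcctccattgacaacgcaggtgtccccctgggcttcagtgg

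T cell genes summed lower after LPS, and Cd4 made much of that difference. The 19 genes had 188, 151, 141 and 195 counts in control replicates 1 to 4 and 130, 81 and 107 counts in LPS replicates 1 to 3, or 10.2 ± 2.10 CPM (SD, n = 4) against 5.96 ± 0.722 CPM (SD, n = 3). Each LPS treated mouse lay below each control mouse, with a log2 ratio of -0.78, and of -0.77 with LPS replicates 2 and 3 summed. Cd4 encodes the co-receptor of helper T cells, which some dendritic cells also carry. It had 30, 39, 33 and 40 counts in control replicates 1 to 4 and 7, 7 and 0 counts in LPS replicates 1 to 3, or 2.13 ± 0.231 CPM (SD, n = 4) against 0.258 ± 0.232 CPM (SD, n = 3). The controls were alike, the LPS treated mice were all far lower, and the log2 fold change was -3.0 with a standard error of 0.71 (edgeR's quasi-likelihood test, adjusted p = 0.00747). Without Cd4, a sum looked at after the values were seen, the other 18 T cell genes gave 8.09 ± 2.10 CPM (SD, n = 4) against 5.70 ± 0.947 CPM (SD, n = 3). Control replicate 3 at 6.60 CPM then lay just below LPS replicate 3 at 6.66 CPM, so the groups overlapped, and the log2 ratio was -0.50.

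The mice of both groups overlapped for the chains of the receptor itself. The constant chains Trac, Trbc1 and Trbc2, which carry the antigen-binding parts, together had 14, 12, 13 and 13 counts in control replicates 1 to 4 and 13, 9 and 13 counts in LPS replicates 1 to 3, a rate ratio of 0.846 (exact 95% interval 0.535 to 1.32). The signalling chains Cd3d, Cd3e, Cd3g and Cd247 together had 21, 22, 31 and 15 counts in control replicates 1 to 4 and 22, 13 and 12 counts in LPS replicates 1 to 3, a rate ratio of 0.664 (exact 95% interval 0.456 to 0.956) with overlapping mice. Cd3e, a common target of T cell antibodies, had 6, 10, 1 and 4 counts in the controls and 5, 7 and 4 in the LPS treated mice. Cd3d had 6, 6, 7 and 0 against 2, 0 and 1, a rate ratio of 0.199 (exact 95% interval 0.0376 to 0.675, for counting error only) with overlap at control replicate 4. Cd3g was the 1 chain that passed the count filter, at a log2 fold change of -0.75 and a standard error of 0.71 (edgeR's quasi-likelihood test, adjusted p = 0.483). The variable segments of the alpha chain, 130 genes in the table, had no count in any mouse, and the 35 of the beta chain had at most 2 counts a mouse. Reads of the near-identical Trbc1 and Trbc2 may have been split or dropped in counting, and how reads that fit several genes were handled is not given in the sources used here.

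The co-receptor of killer T cells had few counts, and the mice of both groups overlapped. Cd8a had 2, 0, 12 and 3 counts in control replicates 1 to 4 and 11, 0 and 2 counts in LPS replicates 1 to 3, and with Cd8b1, its partner chain, the rate ratio was 1.03 (exact 95% interval 0.556 to 1.87). Foxp3, the factor that defines regulatory T cells, had 1, 5, 0 and 8 counts in control replicates 1 to 4 and 6, 0 and 0 counts in LPS replicates 1 to 3, which overlapped. Zap70, the kinase that binds the phosphorylated CD3 chains, had the most counts of the list. It had 32, 29, 23 and 44 counts in control replicates 1 to 4 and 21, 14 and 34 counts in LPS replicates 1 to 3, or 1.91 ± 0.381 CPM (SD, n = 4) against 1.33 ± 0.683 CPM (SD, n = 3). LPS replicate 3 reached the control range, and the log2 fold change was -0.52 with a standard error of 0.47 (edgeR's quasi-likelihood test, adjusted p = 0.456). Lck, the kinase bound to the tails of CD4 and CD8, had 25, 3, 5 and 10 counts in the controls and 10, 17 and 6 in the LPS treated mice, a rate ratio of 0.965 (exact 95% interval 0.594 to 1.56).

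The CD28 family of co-stimulatory receptors has 2 genes among the members. Icos, which sustains helper T cells, had 17, 11, 12 and 14 counts in control replicates 1 to 4 and 7, 0 and 4 counts in LPS replicates 1 to 3, without overlap. Its log2 fold change was -2.01 with a standard error of 0.80, and it was not called (edgeR's quasi-likelihood test, adjusted p = 0.0851), nor without LPS replicate 1 at -2.63 (edgeR, adjusted p = 0.1). Ctla4, the inhibitory member of the family, had no count in any mouse. Cd28 itself, the activating receptor, had 1, 1, 2 and 11 counts in control replicates 1 to 4 and 253, 359 and 293 counts in LPS replicates 1 to 3, a log2 fold change of 6.29 with a standard error of 0.47 (edgeR, adjusted p = 1.04e-06), and of 7.55 without control replicate 4. Cd28 is not among the 45 genes and comes from a list of 26 genes of T cell receptor signalling. Its counts stood far above the 22, 13 and 12 of the 4 CD3 chains together in LPS replicates 1 to 3. Which cells made it was not tested.

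The other T cell members had few counts. Thy1, a surface glycoprotein of T cells, was tested at a log2 fold change of -0.19 with a standard error of 0.65 (edgeR's quasi-likelihood test, adjusted p = 0.865), and its sign turned to 0.31 without control replicate 1, which had 23 counts. Cd5, a brake on receptor signalling, had 2, 2, 4 and 7 counts in control replicates 1 to 4 and 0 in each LPS treated mouse, at least 1.23-fold lower with 3 counts put in each LPS library. Cd2, an adhesion receptor, had 11, 10, 1 and 10 counts in the controls and 5, 5 and 7 in the LPS treated mice, and Lat, the adaptor that Zap70 phosphorylates, had 2, 8, 3 and 11 against 6, 2 and 17. The 14 T cell genes that were not tested ranged from 0 to 25 counts a mouse, and Cd5 was the 1 among them whose groups did not overlap. Its counts in control replicates 1 and 2 were below the limit of 3 counts and are not told from 0.

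In the list of 26 T cell receptor signalling genes, 12 were tested, 3 were called higher and 2 lower against 7.81% and 7.31% of all tested genes, with a median log2 fold change of 0.47. Trat1 and Grap2 reached the count minimum in 1 group only. Trat1, an adaptor that associates with the T cell receptor, was at 0 in the 4 controls and had 70, 162 and 141 counts in LPS replicates 1 to 3, at least 41.0-fold higher with 3 counts put in each control library (edgeR's quasi-likelihood test, adjusted p = 3.17e-05). These counts too were above those of the CD3 chains together, and which cells made Trat1 was not tested. Lcp2, the adaptor SLP-76 that myeloid cells and platelets also use, rose with a log2 fold change of 1.91 and a standard error of 0.32 (edgeR, adjusted p = 0.000767). Tcf7, the transcription factor of naive and memory T cells, had 43, 97, 62 and 87 counts in control replicates 1 to 4 and 14, 41 and 16 counts in LPS replicates 1 to 3. It fell by 1.61 on the log2 scale with a standard error of 0.48, without overlap (edgeR, adjusted p = 0.0264). Tcf7 was not called without control replicate 2, LPS replicate 1 or LPS replicate 3 (log2 fold change -1.40, -1.24 and -1.41, edgeR adjusted p = 0.0816, 0.0807 and 0.105), and was at -2.39 without LPS replicate 2. Grap2, the adaptor Gads that joins Lat to Lcp2, had 9, 10, 3 and 12 counts in the controls and 0, 1 and 0 in the LPS treated mice, a rate ratio of 0.0370 (exact 95% interval 0.00091 to 0.221; edgeR, adjusted p = 0.0146), and was not called without LPS replicate 1 or LPS replicate 3 (edgeR, adjusted p = 0.0665 and 0.0722). Without control replicate 1, 2 or 4 Grap2 did not pass the count filter, and without LPS replicate 2 its log2 fold change was -6.17.

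Innate-like and activated T cells were read from 21 genes, of which 18 were found by symbol, 5 were tested, 2 were called higher and none lower in edgeR. This stands against 7.81% and 7.31% of all tested genes, and the median log2 fold change was 0.55. Zbtb16, the factor PLZF of NKT cells that other cells also make, had 87, 72, 160 and 129 counts in control replicates 1 to 4 and 450, 391 and 431 counts in LPS replicates 1 to 3. Its log2 fold change was 1.86 with a standard error of 0.23 (edgeR's quasi-likelihood test, adjusted p = 7.82e-05). Tnfrsf9, the activation receptor 4-1BB, had 0, 0, 0 and 5 counts in the controls and 76, 25 and 11 in the LPS treated mice (log2 fold change 4.64, standard error 0.98, edgeR adjusted p = 0.0039). Tnfrsf9 reached the count minimum in LPS treated mice only, and its log2 fold change was 8.02 without control replicate 4 and 3.90 without LPS replicate 1.

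The B cell list summed lower after LPS, and Cd79b alone of its genes was called. The 5 genes summed to 64, 93, 50 and 69 counts in control replicates 1 to 4 and to 29, 7 and 24 counts in LPS replicates 1 to 3, or 4.20 ± 1.28 CPM (SD, n = 4) against 1.09 ± 0.562 CPM (SD, n = 3), a log2 ratio of -1.94, and of -1.85 with LPS replicates 2 and 3 summed. Each LPS treated mouse lay below each control mouse, with LPS replicate 2 the lowest. Cd79b encodes a signalling chain of the B cell receptor. It had 10, 19, 13 and 25 counts in control replicates 1 to 4 and 2, 0 and 2 counts in LPS replicates 1 to 3, or 0.978 ± 0.264 CPM (SD, n = 4) against 0.0722 ± 0.0646 CPM (SD, n = 3). No LPS treated mouse exceeded 3 counts and the groups were far apart, with a log2 fold change of -3.60 and a standard error of 0.82 (edgeR's quasi-likelihood test, adjusted p = 0.00627), a fitted value that depends on the prior count. The rate in LPS treated mice was 0.0751 of that in control mice (exact 95% interval 0.0199 to 0.201).

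Cd79a, the partner chain of Cd79b, had the most counts of the list. It had 6, 21, 17 and 22 counts in control replicates 1 to 4 and 7, 0 and 6 counts in LPS replicates 1 to 3, or 0.963 ± 0.382 CPM (SD, n = 4) against 0.232 ± 0.203 CPM (SD, n = 3). In CPM the groups did not overlap, by a narrow gap at control replicate 1, and Cd79a was not called at a log2 fold change of -1.99 and a standard error of 0.82 (edgeR's quasi-likelihood test, adjusted p = 0.0935). Ms4a1, the B cell surface protein CD20, had 22, 19, 12 and 6 counts in control replicates 1 to 4 and 5, 0 and 6 counts in LPS replicates 1 to 3. LPS replicate 3 lay above control replicate 4 in CPM, and Ms4a1 was not called at a log2 fold change of -2.15 and a standard error of 0.89 (edgeR, adjusted p = 0.0956), nor without LPS replicate 3 at -2.82 (edgeR, adjusted p = 0.12). Cd22, an inhibitory receptor, and Pax5, the factor that fixes B cell identity, were not tested. Cd22 had 21, 20, 3 and 10 counts in the controls and 8, 4 and 7 in the LPS treated mice, and Pax5 had 5, 14, 5 and 6 against 7, 3 and 3, both with overlap.

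Of 24 other B cell genes, 12 were tested, 2 were called higher and 2 lower against 7.81% and 7.31% of all tested genes, with a median log2 fold change of -0.16. Their sum was not lower, at 34.7 ± 6.59 CPM (SD, n = 4) against 46.0 ± 6.60 CPM (SD, n = 3). This is a log2 ratio of 0.41, with overlapping mice. The sum does not give the direction of most genes of the list. Ralgps2 held 42.7% of its counts, and Ly6d had a mean of 0.199 CPM in control mice and 16.2 CPM in LPS treated mice. Of the 24 genes, the exact interval of the rate ratio lay below 1 for 11, above 1 for 6 and held 1 for 7. These intervals cover counting error alone. H2-Ob and Ly6d are among 4 genes of the list that reached the count minimum in 1 group only. Without control replicate 1 or 2 or LPS replicate 1 or 2, H2-Ob alone was called lower. H2-Ob, a chain of the H2-O protein that regulates peptide loading in B cells, had 36, 25, 24 and 35 counts in control replicates 1 to 4 and 4, 2 and 1 counts in LPS replicates 1 to 3 (log2 fold change -3.74, standard error 0.63, edgeR's quasi-likelihood test, adjusted p = 0.000832). The groups did not overlap, and H2-Ob lay on the low side with Cd79b. Ly6d, a surface protein of early B cells that epithelia also make, had 3, 6, 1 and 3 counts in the controls and 165, 307 and 341 in the LPS treated mice (log2 fold change 6.32, standard error 0.49, edgeR adjusted p = 1.24e-06). Pou2f2, the factor Oct-2, which macrophages also make, rose with a log2 fold change of 2.86 and a standard error of 0.43 (edgeR, adjusted p = 0.000311).

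**Figure D2:**
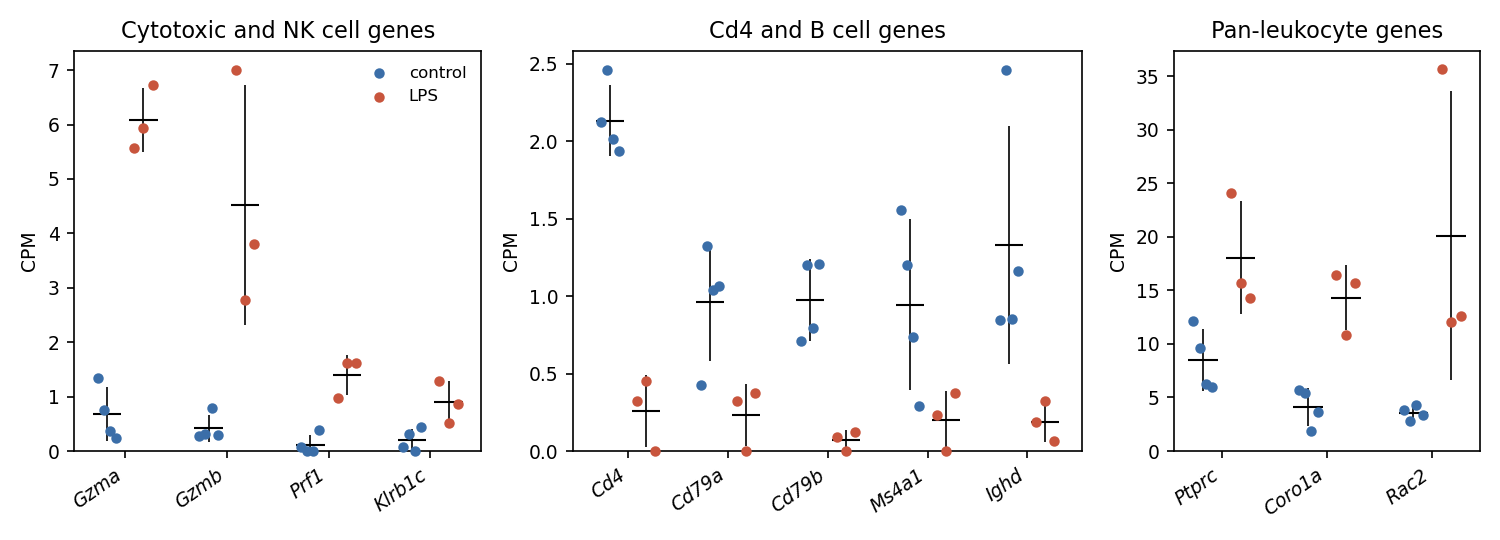
CPM of single lymphocyte genes in each mouse (points), with the mean (horizontal line) and SD (vertical line, drawn down to 0 at most) of 4 control and 3 LPS treated mice. Cd4 was at 1.94 to 2.46 CPM in control mice and at 0 to 0.451 CPM in LPS treated mice, and Gzmb at 0.283 to 0.794 CPM and 2.77 to 7.01 CPM.

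Among immunoglobulin genes, the IgD heavy chain was the only gene called in edgeR, while DESeq2 also called Ighm and Iglc2 lower. Ighd, carried by naive B cells, had 12, 39, 14 and 24 counts in control replicates 1 to 4 and 4, 5 and 1 counts in LPS replicates 1 to 3, or 1.33 ± 0.767 CPM (SD, n = 4) against 0.190 ± 0.130 CPM (SD, n = 3). Control replicate 2 was the highest and each LPS treated mouse was below each control mouse, with a log2 fold change of -2.77 and a standard error of 0.73 (edgeR's quasi-likelihood test, adjusted p = 0.0143). Without LPS replicate 3 it was -2.39 and not called (adjusted p = 0.0693 in edgeR; 0.0039 to 0.0693 over 14 alternatives). Ighm, the heavy chain of IgM, had the most counts of the list, with 76, 122, 29 and 121 counts in control replicates 1 to 4 and 70, 22 and 15 counts in LPS replicates 1 to 3. Control replicate 3 lay among the LPS treated mice, and the log2 fold change of -1.45 with a standard error of 0.51 was not called (edgeR, adjusted p = 0.0549), though it was called under 6 of 15 alternatives (adjusted p 0.00131 to 0.19), among them without control replicate 3 (log2 fold change -1.73, adjusted p = 0.00904) and without LPS replicate 1 (log2 fold change -2.13, adjusted p = 0.0179).

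The light chains and the plasma cell genes varied widely among mice of a group. Igkc, the constant part of the kappa light chain, had 67, 33, 10 and 46 counts in control replicates 1 to 4 and 37, 14 and 23 counts in LPS replicates 1 to 3, with overlap (log2 fold change -0.82, standard error 0.59, edgeR adjusted p = 0.337). Iglc2, a lambda light chain, had 11, 6, 12 and 2 counts against 0, 1 and 0, a rate ratio of 0.0406 (exact 95% interval 0.000995 to 0.243) with no overlap, and it had too few counts for edgeR's filter. Its count in control replicate 4, as in the LPS treated mice, was below the limit of 3 counts and is not told from 0. Jchain joins the subunits of IgM and IgA for secretion. It had 32, 21, 1 and 47 counts in control replicates 1 to 4 and 27, 0 and 7 counts in LPS replicates 1 to 3, which overlapped (log2 fold change -1.34, standard error 1.00, edgeR adjusted p = 0.361). Without LPS replicate 1 it was -2.71, and not called either (edgeR, adjusted p = 0.15). Mzb1, a chaperone of antibody assembly, had 0 to 11 counts a mouse. The 6 genes summed to 11 ± 4.75 CPM (SD, n = 4) against 4.23 ± 1.91 CPM (SD, n = 3), a log2 ratio of -1.38, where control replicate 3 at 4.03 CPM lay below LPS replicate 1 at 6.41 CPM.

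The variable segments of antibodies, each used by a fraction of B cells, could be read only as sums. The 160 kappa segments had 15, 14, 17 and 16 counts in control replicates 1 to 4 and 6, 9 and 2 counts in LPS replicates 1 to 3, with 23 segments counted in the controls and 6 in the LPS treated mice. The 183 heavy chain segments had 6, 11, 7 and 8 counts in the controls and 4, 1 and 5 in the LPS treated mice. In CPM these 2 sums were lower in each LPS treated mouse than in each control mouse, and no segment was tested. The 3 lambda segments had 0, 1, 0 and 2 counts in the controls and 2, 0 and 5 in the LPS treated mice, which overlapped. Among 12 other immunoglobulin and plasma cell genes, 3 were tested and none was called in edgeR in either direction, against 7.81% and 7.31% of all tested genes. Igha, the heavy chain of IgA, had 14, 17, 9 and 22 counts in the controls and 57, 21 and 16 in the LPS treated mice, with a log2 fold change of 0.86 and a standard error of 0.51 (edgeR's quasi-likelihood test, adjusted p = 0.249).

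The 3 pan-leukocyte genes rose, and other leukocytes share them. Ptprc encodes CD45, the phosphatase on all white blood cells. It had 171, 153, 102 and 124 counts in control replicates 1 to 4 and 523, 244 and 230 counts in LPS replicates 1 to 3, or 8.50 ± 2.93 CPM (SD, n = 4) against 18.0 ± 5.29 CPM (SD, n = 3). LPS replicate 1 was the highest and the groups did not overlap, with a log2 fold change of 1.10 and a standard error of 0.27 (edgeR's quasi-likelihood test, adjusted p = 0.00958). It lay close to the threshold of 1: without control replicate 3, control replicate 4 or LPS replicate 1 it was 0.97, 0.95 and 0.83 (edgeR, adjusted p = 0.0189, 0.029 and 0.0535) and not called. Coro1a, an actin regulator that lymphocytes need to survive, had 80, 86, 30 and 75 counts in control replicates 1 to 4 and 357, 168 and 252 counts in LPS replicates 1 to 3. The groups were apart, with a log2 fold change of 1.80 and a standard error of 0.32 (edgeR, adjusted p = 0.00127). Rac2, the small GTPase of blood cells, had 54, 45, 71 and 69 counts in control replicates 1 to 4 and 774, 187 and 202 counts in LPS replicates 1 to 3. Its log2 fold change was 2.49 with a standard error of 0.36 (edgeR, adjusted p = 0.000227), and 1.78 without LPS replicate 1, which stood far above the other mice.

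Set against CD45, the lymphocyte lists moved apart. For each 100 counts of Ptprc, the T cell list had 110, 98.7, 138 and 157 counts in control replicates 1 to 4 and 24.9, 33.2 and 46.5 counts in LPS replicates 1 to 3. The B cell list had 37.4, 60.8, 49.0 and 55.7 against 5.55, 2.87 and 10.4, and the immunoglobulin list 117, 144, 64.7 and 197 against 26.6, 21.7 and 20.0. All 3 lists were lower in each LPS treated mouse. The cytotoxic list had 40.9, 39.2, 63.7 and 64.5 counts for each 100 of Ptprc in the controls. It had 73.0, 92.6 and 107 in the LPS treated mice, higher in each of them. That rise rested on Gzma, Gzmb and Prf1, at 11.11 to 18.63 for each 100 of Ptprc in controls and 56.21 to 84.78 after LPS. The remaining 9 genes of the list, summed after the values were seen, rose less than Ptprc. Their log2 ratio was 0.39, against a log2 fold change of 1.10 for Ptprc. For each 100 counts of Cd3d, Cd3e and Cd3g, the killing genes had 114, 85.0, 61.3 and 127 counts in the controls and 1470, 1333 and 1950 in the LPS treated mice, from 10 to 31 counts of these chains a mouse.

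CD45 is not a measure of lymphocytes alone, and markers of other leukocytes rose with it. Of 16 other pan-leukocyte genes, 12 were called higher and none lower in edgeR against 7.81% and 7.31% of all tested genes, with a median log2 fold change of 1.53. The same shares stand against the counts of the other cell lists below. The first 4 by p were Arhgdib, a regulator of small GTPases, Plek, a platelet and leukocyte protein, Hcls1, a Lyn substrate, and Itgb2, the beta chain of leukocyte integrins, at log2 fold changes of 2.58, 2.98, 2.61 and 2.90. Of 12 neutrophil genes, 9 were tested and all 9 were called higher, 4 of which reached the count minimum in LPS treated mice only. The median log2 fold change was 6.31, and the list summed to 5.24, 4.10, 1.96 and 3.53 CPM in control replicates 1 to 4 and 224, 166 and 163 CPM in LPS replicates 1 to 3. S100a9, a calcium-binding protein of neutrophils, had the most counts of it (log2 fold change 6.18, standard error 0.30), and S100a8, its partner, rose by 6.53 on the log2 scale, whereas Ly6g, the surface marker of mouse neutrophils, had 0 counts in the controls and 7, 0 and 1 in the LPS treated mice. Of 12 monocyte and macrophage genes, 5 were called higher and 1 lower (median log2 fold change 0.47), and the list summed to 159, 252, 214 and 193 CPM in the controls and 740, 226 and 228 CPM in the LPS treated mice. Marco, a scavenger receptor with the most counts of it, rose by 5.62 on the log2 scale and Ly6c2, a monocyte antigen, by 3.28, while Clec4f, the lectin of Kupffer cells, fell by 2.13 on the log2 scale. Without LPS replicate 1, Marco rose by 4.17 and Clec4f fell by 3.09 on the log2 scale, and 4 genes of the list were called lower in place of 1. The part of these cells in the pan-leukocyte genes was not tested.

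Dendritic cells, some of which carry Cd4, were read from 9 genes, of which 3 were tested and none was called in edgeR. The list gave 9.19 ± 2.22 CPM (SD, n = 4) against 8.50 ± 2.08 CPM (SD, n = 3), but Zbtb46, a factor of dendritic cells, held 56.1% of its counts, at a log2 fold change of 0.16. The genes did not share a direction. Of the 9, the exact 95% interval of the rate ratio lay below 1 for 4 (Flt3, Siglech, Xcr1 and Cd209a, none of them tested), above 1 for 1 (Itgax, at a log2 fold change of 0.88 and not called) and held 1 for the other 4, and these genes were named after their values were seen. The intervals cover counting error alone. The part of dendritic cells in the fall of Cd4 was not tested. Of 6 mast cell and basophil genes, 2 were tested and none was called, and Kit, the stem cell factor receptor, had the most counts.

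Genes of red cells were lower in sum, with few calls that held, and no platelet gene was called in edgeR. Of 10 erythrocyte and platelet genes, 4 were called lower in edgeR, all of red cells, against 7.31% of all tested genes. The median log2 fold change of the list was -1.30, and its sum was 312, 186, 237 and 182 CPM in control replicates 1 to 4 and 141, 56.1 and 55.5 CPM in LPS replicates 1 to 3. The count was 2 without control replicate 1, 2 or 3 and 1 without LPS replicate 2 or 3. Hbb-bs, a beta globin with the most counts, and Hba-a1, an alpha globin, lost their calls without each of these 5 mice, and Hbb-bt, another beta globin, without LPS replicate 2 or 3. Without LPS replicate 1 the 3 globins were at log2 fold changes of -2.25, -3.31 and -2.79, against -1.29, -1.76 and -1.94 with all mice. Alas2, of red cell heme synthesis, fell by 1.41 on the log2 scale and was called without each mouse in turn. Blood left in the tissue carries lymphocytes too, and its part in the lower T cell and B cell sums was not tested. Of 8 sinusoidal endothelium genes, 2 were called higher and 1 lower, of 7 stellate cell and fibroblast genes 2 were called lower, and of 12 hepatocyte genes 3 were called higher and 2 lower, against 7.81% and 7.31% of all tested genes. The median log2 fold changes of these lists were -0.42, -0.16 and 0.18. These counts are small and moved: without LPS replicate 1 the endothelium list had 1 called higher and 2 lower, and without control replicate 1 or 3 also 2 lower. The stellate cell list had 1 called lower without control replicate 4, LPS replicate 1 or LPS replicate 2, and the hepatocyte list 1 called higher without control replicate 1. Clec4g, a lectin of sinusoidal endothelium, fell by 4.43 on the log2 scale, Reln, reelin of stellate cells, by 2.32 and Fabp1, the fatty acid binding protein of hepatocytes, by 2.78. Fcgr2b, Dcn and Alb had the most counts of those 3 lists. Fcgr2b and Dcn were not called, at log2 fold changes of -0.41 and -0.16 (edgeR, adjusted p = 0.124 and 0.677). Alb was lower in each LPS treated mouse than in each control mouse, at 46978 ± 11470 CPM (SD, n = 4) against 24665 ± 25.9 CPM (SD, n = 3). Its log2 fold change of -0.93 (standard error 0.24, edgeR adjusted p = 0.0137) missed only the fold change threshold of 1, and it was called without control replicate 1 or 2 (log2 fold change -1.02 and -1.03, edgeR adjusted p = 0.00899 and 0.0146). In the lists of neutrophils, of mast cells and basophils, and of erythrocytes and platelets, 1 gene each had 3 counts or fewer in each mouse.

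Chemokines that draw lymphocytes into tissue were read from 13 ligands, of which 10 were tested. In edgeR 7 were called higher and 1 lower, against 7.81% and 7.31% of all tested genes, with a median log2 fold change of 2.64. Ccl3 and Ccl4 among them reached the count minimum in LPS treated mice only. Cxcl9, an interferon gamma target that attracts T and NK cells through CXCR3, had 189, 139, 209 and 181 counts in control replicates 1 to 4 and 7970, 5165 and 5804 counts in LPS replicates 1 to 3 (log2 fold change 5.02, standard error 0.19, edgeR's quasi-likelihood test, adjusted p = 4.91e-09). No mouse of 1 group came near the other. Ccl3 and Ccl4, inflammatory chemokines, were at 1 count or fewer in each control and had 113, 53 and 40 counts and 46, 21 and 36 counts in LPS replicates 1 to 3, and Ccl5, which attracts T cells, rose by 2.74 on the log2 scale with a standard error of 0.40 (edgeR, adjusted p = 0.000279). Ccl25, which attracts gut-homing T cells, fell by 1.28 on the log2 scale with a standard error of 0.31 (edgeR, adjusted p = 0.00845).

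The receptor of Cxcl9 had few counts. Cxcr3 had 1, 3, 1 and 0 counts in the controls and 1, 0 and 1 in the LPS treated mice, at the limit of 3 counts in both groups. Of 13 homing receptors, 8 were tested, 4 were called higher, among them Itga4, Itgal and Selplg, and none lower against 7.81% and 7.31% of all tested genes, with a median log2 fold change of 1.17. Itga4, Itgal and Selplg, an integrin chain of VLA-4, one of LFA-1 and the ligand of P-selectin, rose by 2.0, 1.94 and 1.62 on the log2 scale with standard errors of 0.32, 0.40 and 0.49 (edgeR's quasi-likelihood test, adjusted p = 0.000581, 0.00334 and 0.0282), and all are found on myeloid cells as well. Without LPS replicate 1, Itgal rose by 1.03. Selplg was not called without control replicate 2, control replicate 4, LPS replicate 1 or LPS replicate 3 (edgeR, adjusted p = 0.0782, 0.0504, 0.0788 and 0.097). Of 10 cytokines that act on lymphocytes, 4 were tested (median log2 fold change -0.48) and 1 was called, higher, against 7.81% of all tested genes: Ebi3, a chain of interleukin-27, at a log2 fold change of 2.52 and a standard error of 0.78 (edgeR, adjusted p = 0.0311). Ebi3 reached the count minimum in LPS treated mice only, and it was not called without control replicate 4 or without any 1 of the LPS treated mice (edgeR, adjusted p = 0.0702, 0.12, 0.069 and 0.0823). Without LPS replicate 1, Il18, which acts on NK and T cells, was called lower instead (log2 fold change -1.16, edgeR adjusted p = 0.00314, against -0.73 and not called with all mice). Il12a and Il12b, the chains of interleukin-12 that drives interferon gamma, had at most 2 and 6 counts a mouse.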

How the data were processed

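The table that the authors deposited gives raw counts, as integers, of 56691 genes in 7 liver samples. The submitters' processing notes name cutadapt 1.9.1, HISAT2 2.2.1, HTSeq 0.6.1, DESeq2 1.34.0 and GRCm39. The libraries were stranded, and whether counting used the strand is not given in the sources used here. The members and gene lists were chosen with earlier results of these data known, and so were the named genes: in each list the called genes in order of p, the gene with the most counts and those that define the cell type. Il18 and Hba-a1 were named after their values were seen. Some genes of the lists are counted and not reported here by name.

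Genes were filtered with filterByExpr (minimum count 10), scaled by TMM (factors 0.901 to 1.11) and compared by edgeR 4.0.16's quasi-likelihood test in R 4.3.3 with treatment alone in the model, adjusting p by Benjamini-Hochberg over all 13683 tested genes. Standard errors come from the F statistic. CPM sums and ratios over members have no test. A rate ratio compares summed counts per scaled library, with an exact 95% interval. The intervals and the floor of 3 counts cover counting error alone, because without molecular identifiers 2 reads can copy 1 molecule. Alternatives were DESeq2 1.42.0, RLE factors, no scaling factors, mitochondrial genes left out, no filter, 10 counts in every sample, other thresholds (an adjusted p below 0.01, or any fold change), a replicate block, other sums, and leaving out or summing mice.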

Additional observations from a re-analysis of the deposited data

Results flagged for a closer look

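Among the 4 control mice, 1 stood apart from the other 3 for 8 of the genes and for 1 sum, of 48 values looked at. Several of these genes had few counts, and how often chance alone marks such a value was not tested. Control replicate 1 was high for Cd8b1 (0.566 CPM), Icos (1.20 CPM), Ifng (0.354 CPM) and the cytotoxic and NK cell sum (4.95 CPM). Control replicate 2 was high for Pax5 (0.884 CPM) and low for Klrk1 (1.07 CPM). It also had 2 counts of Cd247 (0.126 CPM) where the other controls had 0, which is below the limit of 3 counts and not told from 0. Control replicate 3 was high for Gzmb (0.794 CPM), and control replicate 4 was at 0 for Cd3d, where it had no count (0 CPM). The 3 LPS treated mice are too few for this comparison.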

How the results depend on the processing

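The same 9 members were called with RLE factors, without mitochondrial genes and with LPS replicates 2 and 3 summed. An adjusted p below 0.01 left 5 higher and 2 lower, and no fold change threshold 6 and 3. Requiring 10 counts in every sample left 7 members to test, of which 3 were called higher (Ptprc, Coro1a, Rac2) and 0 lower. Of all 11307 genes tested in that setting, 693 were called higher and 759 lower. DESeq2 called 6 higher and 5 lower, adding Ighm and Iglc2. Over all 23630 genes that DESeq2 tested, it called 1180 higher and 1157 lower. Ighm was also added without scaling factors, which moved the median of all genes from -0.01 to -0.13, and with no filter. The sum of T cell genes moved from -0.78 to -1.14 (log2 ratio) as a geometric mean and to -0.50 without Cd4, and the cytotoxic sum from 1.93 to 2.22 as a geometric mean, to 1.49 without Gzma and to 0.39 without the killing genes; the sums without Cd4 and without the killing genes, and leaving out mice for the other lists, were chosen after seeing the data. The value of Thy1 changed sign to 0.086 with the replicate block and to 0.31 without control replicate 1. The replicate numbers are shared by different animals and the correlations of deviations at the same number were 0.18, -0.06 and 0.07, so they do not pair the mice. With the block, 5 members were called higher and 4 lower, without Ptprc and with Ighm, against 995 and 926 of all 13683 tested genes. Leaving out each mouse in turn gave 5 to 6 members called higher and 2 to 4 lower. Of all 13344 to 14130 genes tested in those fits, 945 to 1055 were called higher and 792 to 1059 lower. The 26 members that the filter removed have few counts: with no filter all but Ctla4 were tested and none of them was called in edgeR, DESeq2 called Iglc2, and of the 25 with a count, 17 had an interval of the rate ratio that holds 1.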
